A study of Mus musculus with 24 samples.

Results

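Complement components and regulators are described here in cultured mouse pulmonary fibroblasts: the 3 chains of C1q (C1qa, C1qb and C1qc), the serine proteases C1ra and C1s1, the components C4b and C3, factor B (Cfb) and the inhibitor Serping1. The 9 genes were chosen by name from the 55291 gene names counted in each library, and all 9 were among the 16258 genes that passed the filter on low counts. Fibroblasts came from C57BL/6 mice aged 4 to 8 weeks, WT or labelled TLR4-/-, each from a pool of 3 to 4 lungs, and were used at passages 3 to 6 after a night in reduced-serum medium. They received PBS, 1 μg/ml recombinant mouse cold-inducible RNA-binding protein (rmCIRP), rmTGF-β1, the recombinant mouse cytokine, at 2 ng/ml, or both for 24 h. Each of these 8 conditions had 3 RNA-seq libraries, 24 in all. The labels do not say whether the 3 came from separate pools, so p-values measure the spread between these libraries, which may be technical.

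Complement is a cascade of plasma and tissue proteins that marks particles for uptake, recruits leukocytes and can lyse membranes. In the classical pathway C1q binds immune complexes or damaged cells, its proteases C1r and C1s cleave C4 and C2, and the resulting enzyme cleaves C3, while the alternative pathway amplifies C3 cleavage with factor B. The inhibitor encoded by Serping1 blocks C1r and C1s. In tissues C1q is made mostly by macrophages and other myeloid cells, whereas fibroblasts and other stromal cells commonly make C1r, C1s, C4, C3 and the C1 inhibitor.

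The stretches before the transcription start of C1qb, C1qc and C3 show the sequence in front of genes that moved in opposite directions with rmCIRP. They are the 250 bases upstream of the RefSeq start in GRCm38.p6, 5′ to 3′ on the gene's strand, which is the minus strand for each, and capitals mark motif matches.
C1qb, chr4:136886201-136886450: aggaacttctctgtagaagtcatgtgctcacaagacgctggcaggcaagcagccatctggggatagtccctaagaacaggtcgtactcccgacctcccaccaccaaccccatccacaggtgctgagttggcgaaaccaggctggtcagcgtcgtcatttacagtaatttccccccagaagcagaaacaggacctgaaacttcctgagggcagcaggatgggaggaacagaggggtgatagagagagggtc
C1qc, chr4:136892915-136893164: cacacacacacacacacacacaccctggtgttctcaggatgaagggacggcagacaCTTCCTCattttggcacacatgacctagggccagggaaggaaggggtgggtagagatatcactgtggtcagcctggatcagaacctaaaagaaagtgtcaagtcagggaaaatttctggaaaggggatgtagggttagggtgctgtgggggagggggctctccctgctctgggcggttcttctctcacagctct
C3, chr17:57228137-57228386: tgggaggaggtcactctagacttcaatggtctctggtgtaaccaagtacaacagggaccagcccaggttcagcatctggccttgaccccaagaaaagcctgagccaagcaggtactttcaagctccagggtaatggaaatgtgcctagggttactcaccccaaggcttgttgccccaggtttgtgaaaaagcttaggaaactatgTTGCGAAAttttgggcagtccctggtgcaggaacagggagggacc
These 6 motifs were searched on both strands in windows that run 50 bases past the start: GAGGAAG (a PU.1-type ETS core), TTGCNNAA (C/EBP), TTCNNNGAA (GAS), GTCTAGAC (a SMAD element), an ISRE and an NF-kB motif. C1qc held GAGGAAG on the reverse strand, a sequence found in 13.6% of the 32851 RefSeq promoter windows, with its first base 194 bases before the start. C3 held TTGCNNAA at 45 bases before the start, and 10.8% of windows hold that motif. C1qb held none of the 6 in this window. Of the 9 genes, 5 had a window, and of these C1ra and C1s1 also held TTGCNNAA and C1ra held TTCNNNGAA, which 8.3% of windows hold. The ISRE, NF-kB and SMAD motifs, in 3.44%, 0.411% and 0.213% of windows, were in none of the 5. The remaining genes, C1qa, C4b, Cfb and Serping1, are not shown.

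Between 29853346 and 39664606 reads per library were counted on genes. Counts below are normalized for library size, and log2 fold changes come from the quasi-likelihood F-test of edgeR, adjusted after Benjamini and Hochberg over all genes tested, with an adjusted p under 0.1 called. The Tlr4 normalized count with PBS was 718, 802 and 758 in WT libraries and 927, 892 and 891 in those labelled TLR4-/-, and was thus not lower under that label. The labels also differed in Xist, at 0 to 3 reads in the 12 WT libraries and 4403 to 6201 reads in the other 12. Markers of macrophages were present throughout: with PBS, 15 such genes summed to 93921 to 101990.0 normalized counts in WT and 341096 to 391387 in labelled TLR4-/- libraries, beside 512903 to 556462 and 480533 to 539855 for 10 fibroblast markers. In bulk RNA, fewer cells of a type and less RNA per cell cannot be told apart. Library 3 labelled TLR4-/- with both agents stood apart from its 2 replicates and was kept.

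All 9 complement mRNAs were detected in WT cells with PBS, over a wide range of levels. Per kilobase of exon, Serping1 led with 3867 normalized counts, followed by the C1q chains C1qb (2312), C1qa (1939.9) and C1qc (1151). Below these were C3 at 749, C1s1 at 627, C1ra at 267 and C4b at 108 per kilobase. The libraries of neighbouring genes in this order overlapped only for C3 with C1s1. Factor B came last at 6.31 per kilobase, counted over the 579 bases of exon that it alone holds. In GENCODE M21, 79.5% of its 2825 exon bases are also exon of the readthrough gene Gm20547 on the same strand, so a counter using that annotation would set most of its reads aside as ambiguous. Gm20547 itself had 0 reads in every library, so it is uncertain which part of factor B was counted.

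**Figure D1:**
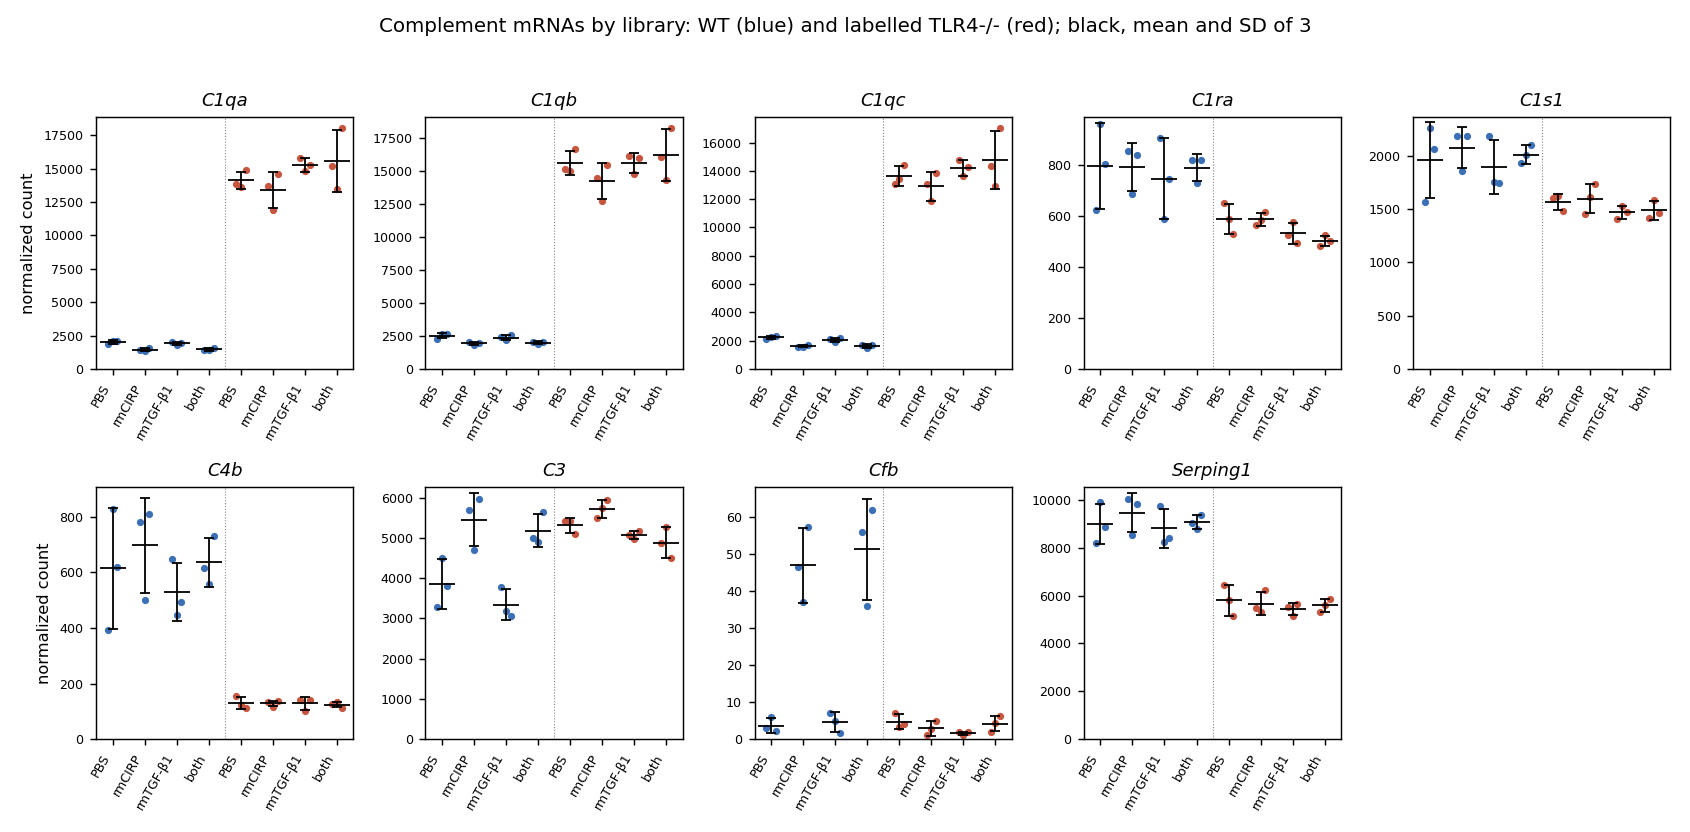
Normalized counts of the 9 complement genes in each of the 24 libraries, by genotype label and treatment, with linear axes from 0; points are libraries and black marks the mean ± SD of 3. The C1q chains are several-fold higher in the labelled TLR4-/- libraries, C4b and Serping1 are lower there, and Cfb is above 35 only in the 6 WT libraries that received rmCIRP.

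In WT cells, rmCIRP lowered the mRNA of all 3 C1q chains, raised C3 and raised factor B from near the limit of detection. Of the 9 genes, 2 rose and 3 fell, beside 19.8% of all genes tested that were called higher and 24.1% called lower (43.9% in all), so a call as such is common in this comparison. Cells treated with PBS had C1qa normalized counts of 1866, 2099 and 2088, and those treated with rmCIRP had 1443, 1308 and 1551. Every rmCIRP library lay below every PBS library, as held for the libraries of 50.8% of all genes in one direction or the other. C1qa, which encodes the A chain, fell by 29.2%, a log2 fold change of -0.50 (± 0.091 SE, edgeR adjusted p = 0.000154). The count of C1qb, the B chain, was 2282, 2641 and 2623 with PBS and 2063, 1798 and 1954 with rmCIRP, and that of C1qc, the C chain, was 2087, 2247 and 2331 and 1561, 1544 and 1669. The libraries of the 2 treatments were again separate for each chain. C1qb changed by a log2 fold of -0.38 (± 0.087 SE, edgeR adjusted p = 0.00137) and C1qc by -0.49 (± 0.084 SE, edgeR adjusted p = 8.27e-05). Of the C1q sum, C1qa made up 29.9 ± 0.201% with PBS and 28.9 ± 0.986% with rmCIRP (SD, n = 3). C1qb made up 37.2 ± 0.598% and 39.1 ± 1.51%, and C1qc 32.9 ± 0.672% and 32.1 ± 1.21%.

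The fall of C1q went with mixed changes in macrophage markers. Of the 15, 6 were higher and 7 lower with rmCIRP, with a median log2 fold change of -0.11 beside -0.02 over all genes tested. Those higher included Cd14 (1.70), the co-receptor for lipopolysaccharide, and Adgre1 (0.98), and those lower included Mrc1 (-0.71), the mannose receptor, and Csf1r (-0.52), the receptor for M-CSF. The sum of the 15 markers was 93921 to 101990.0 with PBS and 84608 to 90035 with rmCIRP. Per 100 counts of these markers, the C1q sum was 6.64, 6.85 and 6.92 with PBS and 5.70, 5.50 and 5.75 with rmCIRP. C1q thus stood lower against this sum in every rmCIRP library, but Lyz2 alone made up 78.8 ± 0.239% of the sum with PBS and 71.1 ± 0.260% with rmCIRP. Against the 14 markers without Lyz2, C1q was 31.3, 31.9 and 33.0 per 100 counts with PBS and 19.7, 19.2 and 19.8 with rmCIRP. Against Csf1r alone, which itself was lower, it was 224, 220.1 and 223 and 222, 239 and 242, with overlapping libraries and a higher mean with rmCIRP, so the direction depends on the markers chosen. Of 10 fibroblast markers, 2 were higher and 6 lower. Of 5 neutrophil markers, S100a9 had no read and Ly6g at most 2 in any library of these conditions, and the other 3 were higher. The 5 summed to 153 to 187 with PBS and 441 to 475 with rmCIRP. The part of any shift in cell make-up in the C1q result was not tested beyond these values.

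The C1 proteases, C4b and the C1 inhibitor were not called with rmCIRP in WT cells. C1ra had 624, 959 and 800.4 normalized counts with PBS and 852, 683 and 838 with rmCIRP. The PBS libraries alone spanned a wide range, with library 1 lowest and library 2 highest, an order shared by the others of the 9 except C1qc and factor B. The log2 fold change of C1ra was -0.011 (± 0.13 SE, edgeR adjusted p = 0.96), with a 95% interval of -0.29 to 0.26. That of C1s1 was 0.076 (± 0.10 SE, edgeR adjusted p = 0.601). C4b, the substrate of C1s, had 394, 829.6 and 620.3 counts with PBS and 782, 501 and 811 with rmCIRP, a change of 0.18 (± 0.20 SE, edgeR adjusted p = 0.51). Without PBS library 2 the value of C4b was 0.47, with an adjusted p of 0.0684 in edgeR, and without PBS library 1 it was -0.046. Serping1 had 8202, 9897 and 8876 with PBS and 10056, 8545 and 9814 with rmCIRP, a change of 0.070 (± 0.083 SE, edgeR adjusted p = 0.547) with an interval of -0.10 to 0.24.

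C3, on which all complement pathways converge, and factor B, the protease of the alternative pathway, rose together. C3 had 3273, 4495 and 3793 normalized counts with PBS and 5679, 4702 and 5954 with rmCIRP. The rmCIRP libraries all lay above the PBS libraries, though the nearest pair was close. The rise was 1.41-fold, a log2 fold change of 0.49 (± 0.096 SE, edgeR adjusted p = 0.000315). Factor B had few reads: 3, 6 and 2 raw counts with PBS and 44, 36 and 58 with rmCIRP, or 11 against 138 in all. Its treatment groups did not overlap, and the log2 fold change was 3.63 (± 0.38 SE, edgeR adjusted p = 1.16e-07) with a 95% interval of 2.84 to 4.43. The size of that fold rests on the 11 reads with PBS and on the part of the gene that was counted. Its neighbour C2, the classical-pathway homologue that shares the readthrough gene, had 36 reads with PBS and 45 with rmCIRP over the 3 libraries of each. The libraries overlapped, and the change of 0.35 (± 0.35 SE, edgeR adjusted p = 0.465) was not called.

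The rmCIRP response had the same members and directions when all cells also received rmTGF-β1, a comparison that shares no library with the one above. Of the 9 genes, 2 were higher and 3 lower, beside 20.5% of all genes called higher and 21.7% lower (42.2% in all). C1qa had 2007, 1803 and 1945 normalized counts with rmTGF-β1 and 1447, 1386 and 1575 with both agents, a log2 fold change of -0.39 (± 0.091 SE, edgeR adjusted p = 0.00185). C1qb changed by -0.26 (± 0.087 SE, edgeR adjusted p = 0.0236) and C1qc by -0.35 (± 0.084 SE, edgeR adjusted p = 0.00256). For each chain the libraries with both agents lay below those with rmTGF-β1 alone. The call of C1qb was lost without rmTGF-β1 library 3, at an adjusted p of 0.112 in edgeR. C3 was counted at 3782, 3171 and 3059.6 with rmTGF-β1, against 4984, 4900.0 and 5647 with both, a rise of 0.63 (± 0.097 SE, edgeR adjusted p = 2.41e-05). Factor B had 7, 5 and 2 raw counts with rmTGF-β1 and 55, 31 and 56 with both, a rise of 3.50 (± 0.36 SE, edgeR adjusted p = 8.83e-08). The groups did not overlap for these 2 genes, as held for 50% of all genes. C1ra, C1s1, C4b and Serping1 were not called, at log2 fold changes of 0.077, 0.081, 0.26 and 0.037.

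The rmCIRP response with rmTGF-β1 minus that without it was called for 0 of the 9 genes in edgeR and 0 in DESeq2, with 0 at an unadjusted p under 0.05 in edgeR, beside 0.0492% of all genes called. For C1qa the difference of log2 fold changes was 0.11 (95% interval -0.16 to 0.37), for C3 0.14 (-0.15 to 0.42) and for factor B -0.13 (-1.46 to 1.20). These intervals do not show the responses with and without rmTGF-β1 to be equal. When WT cells received rmTGF-β1 in place of PBS, 0 of the 9 were called in edgeR and 0 in DESeq2, with 1 at an unadjusted p under 0.05 in edgeR, beside 12.4% of all genes called. That 1 gene was C3, whose log2 fold change was -0.21 (± 0.097 SE, edgeR adjusted p = 0.199). C1qa changed by -0.077 (± 0.089 SE, edgeR adjusted p = 0.687), within the spread of its libraries.

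**Figure D2:**
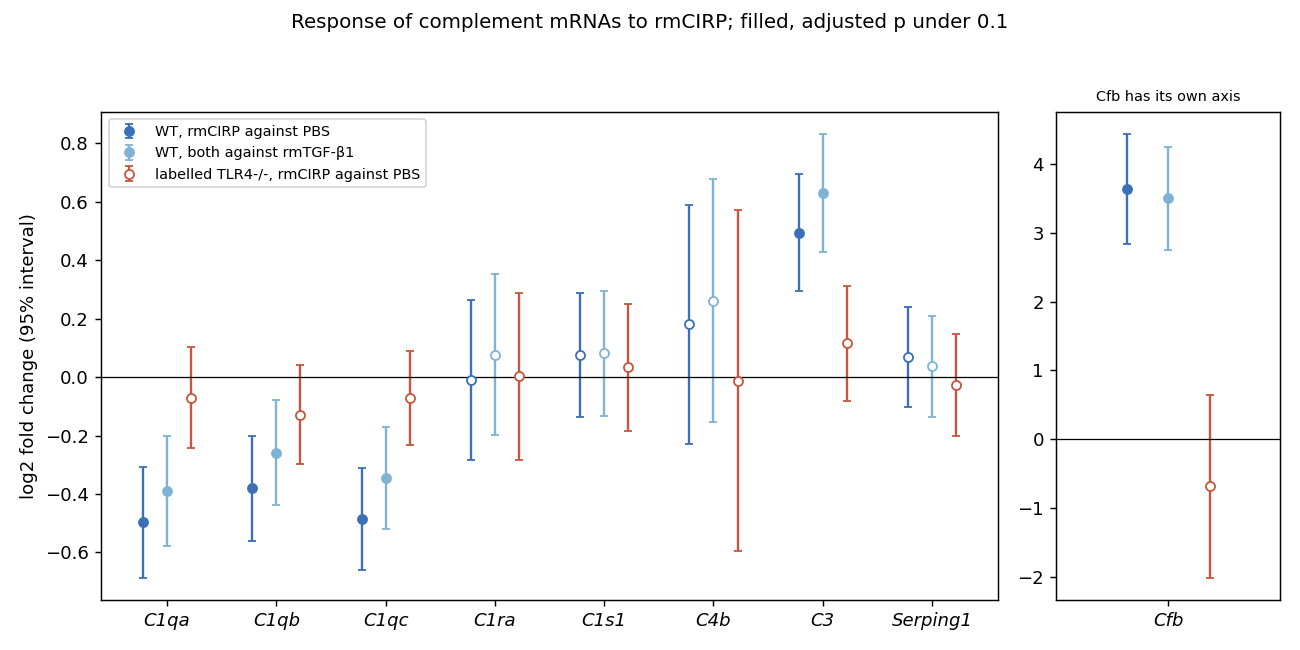
Log2 fold changes with 95% intervals of the 9 genes for rmCIRP in WT cells, rmCIRP in WT cells with rmTGF-β1, and rmCIRP in cells labelled TLR4-/-; filled points were called and Cfb has its own axis. Both WT comparisons put the C1q chains below 0 and C3 and Cfb above it, and every interval under the TLR4-/- label includes 0.

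In the libraries labelled TLR4-/-, no complement gene was called with rmCIRP. The count was 0 of 9 in edgeR and 0 in DESeq2, with 0 at an unadjusted p under 0.05 in edgeR, and 0% of all genes were called there. C1qa had 13852, 13669 and 14871 normalized counts with PBS and 13687, 11921 and 14629.8 with rmCIRP, which overlapped. Its log2 fold change was -0.070 (95% interval -0.24 to 0.10), that of C1qb -0.13 (-0.30 to 0.040) and that of C1qc -0.072 (-0.23 to 0.089). C3 had 5409.8, 5412 and 5095 with PBS and 5497, 5738 and 5936 with rmCIRP. Its rmCIRP libraries were all slightly above those with PBS, by a log2 fold of 0.12 (-0.083 to 0.31), and libraries were separate for 13.7% of all genes in this comparison. Factor B had 7, 3 and 4 raw counts with PBS and 1, 3 and 5 with rmCIRP. Its fitted change of -0.68 had an interval of -2.01 to 0.65, so only a large change would have been detectable at this depth.

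The difference between the labels in the rmCIRP response, taken as labelled TLR4-/- minus WT, was called for 4 of the 9 genes, beside 31.4% of all genes (17.1% higher and 14.3% lower). It was 0.43 (± 0.12 SE, edgeR adjusted p = 0.0141) for C1qa and 0.41 (± 0.11 SE, edgeR adjusted p = 0.0104) for C1qc. For C3 it was -0.38 (± 0.14 SE, edgeR adjusted p = 0.0453) and for factor B -4.31 (± 0.80 SE, edgeR adjusted p = 0.000372). The call of C3 was the least firm: without WT PBS library 1, WT rmCIRP library 1 or WT rmCIRP library 3 its adjusted p in edgeR was 0.105, 0.1 and 0.101. C1qb was not called, at 0.25 (± 0.12 SE, edgeR adjusted p = 0.132). It was called in 4 of the alternatives, with adjusted p-values in edgeR of 0.0806 with library totals in place of TMM, 0.00673 without the low-count filter, 0.0343 with the replicate block and 0.0713 with only the libraries compared. It was also called in 3 of 12 fits that left out a library: WT PBS 1 (0.0904), WT rmCIRP 1 (0.0956) or labelled TLR4-/- rmCIRP 2 (0.0742). C1ra, C1s1, C4b and Serping1 differed by 0.013, -0.043, -0.19 and -0.097, none called. This comparison uses the WT PBS and rmCIRP libraries described above, so it is not separate evidence for the WT response.

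With PBS alone, the labels differed strongly in complement mRNA. C1q was several-fold higher in the libraries labelled TLR4-/-, C3 was modestly higher, and C4b, Serping1, C1ra and C1s1 were lower. That is 4 genes higher and 4 lower of 9, beside 23.2% of all genes called higher and 24% lower (47.1% in all). C1qa was 1866, 2099 and 2088 in WT and 13852, 13669 and 14871 under the other label, 6.99-fold higher, a log2 fold change of 2.81 (± 0.091 SE, edgeR adjusted p = 1.6e-16). C1qb was 6.20-fold and C1qc 6.12-fold higher, with log2 fold changes of 2.63 (SE 0.088) and 2.61 (SE 0.084). No WT library reached any labelled TLR4-/- library for these chains, under any treatment. C3 was 3273, 4495 and 3793 in WT and 5409.8, 5412 and 5095 in labelled TLR4-/- libraries, a change of 0.46 (± 0.096 SE, edgeR adjusted p = 0.000549). These libraries too were separate, as were those of 51.7% of all genes.

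C4b, the classical-pathway component, was 394, 829.6 and 620.3 in WT and 156, 121 and 112 in labelled TLR4-/- libraries with PBS. The groups did not overlap, and the log2 fold change was -2.24 (± 0.24 SE, edgeR adjusted p = 6.38e-08), a fall to 0.211 of the WT level. Serping1 fell from 8202, 9897 and 8876 to 6445, 5815 and 5133, a change of -0.64 (± 0.083 SE, edgeR adjusted p = 1.69e-06), again without overlap. C1ra and C1s1 changed by -0.44 (± 0.14 SE, edgeR adjusted p = 0.0126) and -0.33 (± 0.10 SE, edgeR adjusted p = 0.0148), but their libraries overlapped. Both calls were lost without WT PBS library 2, at adjusted p-values of 0.145 and 0.158 in edgeR. Factor B was not called, at 0.35 (± 0.61 SE, edgeR adjusted p = 0.688). C1ra, C1s1 and C4b have near copies, C1rb, C1s2 and C4a, with which 48%, 21.8% and 34.6% of their 50-base stretches are identical. Their reads may thus be split between copies or not counted. With PBS these copies averaged 1.99, 8.06 and 36.8 normalized counts in WT and 0.661, 5.73 and 33.7 under the TLR4-/- label. The part of such reads in the differences was not tested.

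Macrophage markers moved with the label as C1q did: 15 of 15 were higher with PBS, by log2 fold changes of 1.56 to 2.92 with a median of 1.97. The C1q chains, at 2.61 to 2.81, lay in the upper part of that range. Per 100 counts of the 15 markers, the C1q sum was 6.64, 6.85 and 6.92 in WT and 12.3, 11.6 and 11.7 in labelled TLR4-/- libraries with PBS. Lyz2 made up 77.1 ± 0.533% of that sum under the TLR4-/- label. Without Lyz2 the C1q sum was 31.3, 31.9 and 33.0 per 100 marker counts in WT and 52.5, 51.2 and 52.2 in labelled TLR4-/- libraries, and per 100 counts of Csf1r 224, 220.1 and 223 and 312, 296 and 323. C1q was higher under that label against each of these, while 1 marker, Aif1 (2.92), rose by more than any C1q chain. Of 10 fibroblast markers, 1 was higher and 5 lower, with Pdgfra at -1.19, Thy1 at -1.16 and Dcn, which was higher, at 0.25. Epithelial markers summed to 70.8 to 116 in WT and 327 to 346 in the others. Of the 7, Krt18, Krt8 and Cdh1 held nearly all of these sums. Sftpc, Sftpb and Scgb1a1 had at most 2 reads in any PBS library, and Epcam at most 7. Endothelial markers summed to 639 to 933 and 302 to 387, and 6 lymphocyte markers to at most 25.8 in any library. The genotype label, the Xist reads and the macrophage markers changed together here, and their parts in the complement differences cannot be told apart.

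**Figure D3:**
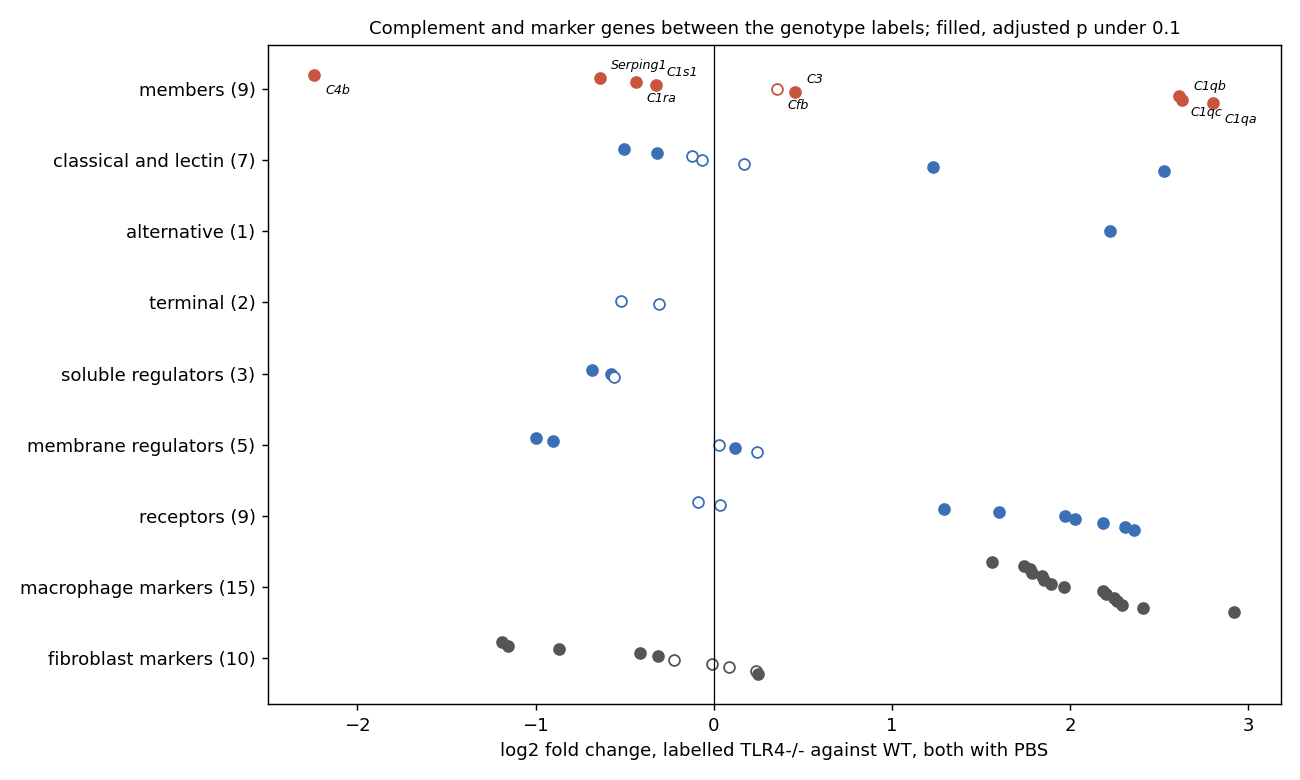
Log2 fold change between labelled TLR4-/- and WT libraries with PBS, one point per tested gene, for the 9 members, the other complement genes by role, and macrophage and fibroblast markers; filled points were called and the number of genes is in brackets. The C1q chains, 7 of 9 receptors and all 15 macrophage markers lie at 1.29 or above, while C4b is the lowest point at -2.24.

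The balance of C1q against C3 showed the same data within each library, where the library's depth cancels. The log2 ratio of the C1q sum to C3 was 0.93, 0.64 and 0.89 in WT cells with PBS and -0.16, -0.016 and -0.20 with rmCIRP. It was 0.93 ± 0.18 with rmTGF-β1 and -0.026 ± 0.073 with both (SD, n = 3). WT libraries without rmCIRP thus had more C1q than C3 reads, and those with it had about as many of each or fewer. These reads were not divided by gene length, so the ratio does not compare transcript levels of the genes. Per kilobase, C1qb at 1782 and C1qa at 1379 stayed above C3 at 1059 in WT cells with rmCIRP, while C1qc at 824 was below it. Under the TLR4-/- label the ratio was 3.03 ± 0.12 with PBS and 2.82 ± 0.13 after rmCIRP. With rmTGF-β1 it was 3.15 ± 0.045, or 3.25 ± 0.31 when rmCIRP was added. The 3 libraries with rmCIRP alone there lay below those with PBS as well, by less. Against factor B the WT log2 ratio was 11.08, 10.19 and 11.72 with PBS, and 6.76, 6.97 and 6.50 with rmCIRP, without overlap. These ratios were not tested.

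**Figure D4:**
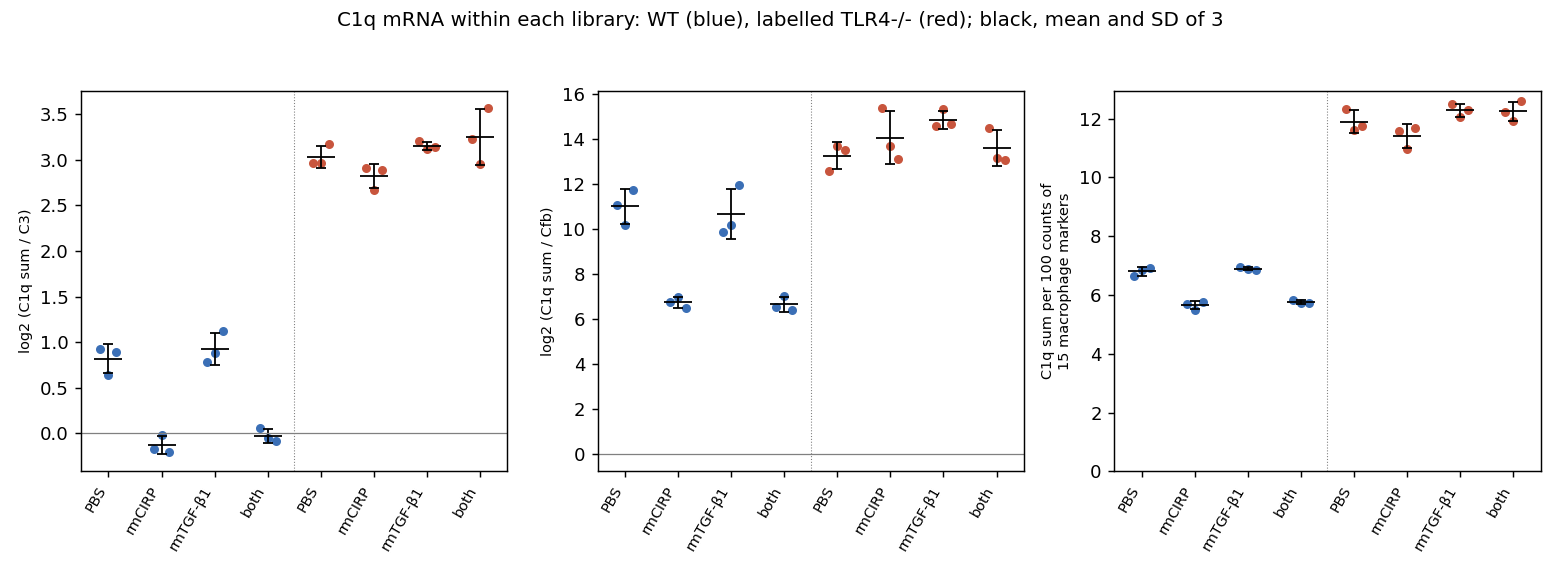
The summed C1q chains within each library, as the log2 ratio to C3, the log2 ratio to Cfb, and the count per 100 counts of 15 macrophage markers, by genotype label and treatment; points are libraries and black marks the mean ± SD of 3. The ratio to C3 is near 0 in the WT libraries with rmCIRP, between 0.64 and 1.12 in the other WT libraries and above 2.6 under the TLR4-/- label. Counts are not divided by gene length.

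The wider complement system was read from a list of 52 genes outside the 9, of which 27 were tested. With rmCIRP in WT cells, 2 were higher and 12 lower, or 51.9% called beside 43.9% of all genes tested, with a median log2 fold change of -0.12 beside -0.02. Masp1, a lectin-pathway protease, fell by the largest amount among those with at least 50 counts, at -1.03 (± 0.17 SE, edgeR adjusted p = 5.15e-05), from a mean of 879 normalized counts to 431. C3ar1, the receptor for the C3a fragment, changed by -0.69 (± 0.092 SE, edgeR adjusted p = 3.36e-06). Cd59a, which guards cells against the membrane attack complex, changed by -0.46 and C4bp, a binding protein for C4b, by -0.44. Itgax, a chain of complement receptor 4, was higher by 0.51. Properdin (Cfp), which steadies the alternative-pathway convertase, was lower by less, at -0.25. With rmTGF-β1 in both groups its change was -0.099 and was not called. The difference between the labels in its rmCIRP response was 0.12, also not called. When all cells received rmTGF-β1, 1 was higher and 8 lower, or 33.3% beside 42.2% of all genes, and under the TLR4-/- label 0 were called in edgeR with 1 at an unadjusted p under 0.05. The response differed between labels for 9 of the 27, or 33.3% beside 31.4% of all genes, with 7 higher and 2 lower under the TLR4-/- label.

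Between the labels with PBS, 11 of the 27 were higher and 6 lower in the libraries labelled TLR4-/-, or 63% called beside 47.1% of all genes. The higher ones held 7 of 9 receptors, with C5ar1, the C5a receptor, at 2.31 (± 0.070 SE, edgeR adjusted p = 1.04e-16), Itgam at 2.19 and Itgb2 at 2.03, the chains of complement receptor 3. Fcna, a ficolin of the lectin pathway, was higher by 2.53 and properdin by 2.23. Of 5 membrane regulators, which keep complement off the cell surface, 2 were lower, Cd59a at -0.998 and Cd55 at -0.90. Another, Cr1l, was higher by 0.12, Cd59b and Cd46 were not called, and the median of the 5 was 0.032. C4bp and clusterin (Clu), soluble regulators, were at -0.68 and -0.58. Itgam is also in the macrophage marker list, and 68.7% of its exon bases are shared with the annotated gene Gm49368.

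Each pattern was set beside those of 12303 genes with at least 50 counts, by the Pearson correlation of log2 CPM over the 24 libraries, which share labels and treatments. The closest to C1qa outside the 9 were Gusb, Lyz2, Tyrobp, Fcrls and Fcgr3. Their r was 0.999, and within the 12 WT libraries Gusb, a lysosomal enzyme, had an r of 0.97. The 3 C1q chains had r of 0.96 to 0.97 with each other within WT libraries and 0.94 to 0.98 within the other 12. Nearest to C3 were H2-Ab1, Siglece, Slc28a2, Rassf4 and Gm8995, with H2-Ab1, a class II antigen-presentation gene, at an r of 0.93. For these genes r with C3 ran from 0.90 to 0.93 within WT libraries and from 0.46 to 0.66 within the others. Nearest to factor B were Slc11a2, Cxcl3, Gm43197, Nfkb2 and Agrn, of which Nfkb2 encodes an NF-kB subunit and Cxcl3 a chemokine. For these genes r with factor B ran from 0.97 to 0.99 within WT libraries and from 0.58 to 0.77 within the others. Within WT libraries, where both were called higher with rmCIRP, C3 and factor B had an r of 0.91. Within the others it was 0.0084, but factor B had only 1 to 7 raw counts per library there. C1ra was closest to Hp, Ly6a, Tmem176a, Laptm4a and Lbp, C4b to Abi3bp, Serpina3n, Sod3, Fstl1 and Cacna1c and Serping1 to Serpina3n, Sema3c, Abi3bp, Pappa2 and Il1r1. Within WT libraries these r ran from 0.79 to 0.97 for C1ra, 0.78 to 0.91 for C4b and 0.59 to 0.89 for Serping1. Within the others they ran from 0.38 to 0.78, -0.061 to 0.54 and 0.46 to 0.84, in that order. An r over all 24 libraries also carries the difference between the labels, and an r within 1 label carries the differences between treatments. C4b and Serping1 had an r of 0.95 with each other within WT libraries and 0.65 within the others.

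In the remaining comparisons under the TLR4-/- label, none of the 9 genes was called. With rmTGF-β1 against PBS, 0 of the 9 were called in edgeR and 0 in DESeq2, with 0 at an unadjusted p under 0.05, beside 23.9% of all genes. Of the 27 tested genes of the wider list, 1 was higher there (C1qbp, 0.13) and 5 were lower, from -0.38 for Cd55 to -0.20 for C3ar1. Adding rmCIRP to rmTGF-β1 gave 0 in edgeR and 0 in DESeq2, with 0 at an unadjusted p under 0.05, beside 2.69% of all genes. Factor B had 14 reads with PBS, 5 with rmTGF-β1 and 13 with both over the 3 libraries of each. Its log2 fold change for adding rmCIRP to rmTGF-β1 was 1.32, with a wide 95% interval of -0.22 to 2.85. With both agents C1qa was 15202, 13464 and 18048 normalized counts, and library 3, which stood apart from its replicates, was the highest. The difference between the labels in the rmTGF-β1 response was called for 0 of the 9 in edgeR and 0 in DESeq2, with 0 at an unadjusted p under 0.05, beside 0.0861% of all genes. C4b stayed between 102 and 156 normalized counts in all 12 libraries of this label, below the 394 of the lowest WT library.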

How the data were processed

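Total RNA libraries were made with a stranded kit, and the authors aligned reads with STAR2 to a mouse GENCODE reference and deposited ht-seq counts, unnormalized, for every gene symbol in each library. The submitters' processing notes name HTSeq, FastQC and the build NCBIM37. The annotation release and whether counting used strand are not given in the sources used here, so overlapping and antisense genes stay uncertain. The 5 tally lines of reads set on no single gene held 14.5% to 16.1% of reads and were left out.

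Tests used edgeR 4.0.16 in R 4.3.3: filterByExpr with the 8 conditions as groups, TMM, glmQLFit with 1 mean per condition over all 24 libraries, quasi-likelihood F-tests and Benjamini-Hochberg adjustment over 16258 genes, called at an adjusted p under 0.1, the study's threshold. SEs are the log2 fold change over the square root of F. Normalized counts are counts over DESeq2 1.42.0 size factors. Exon lengths and overlaps came from GENCODE M21, which holds 53292 of the 55291 names, and promoters from RefSeq. No coordinate of the count files was used. The script was tested on simulated data. Alternatives were DESeq2, RLE, library totals, no filter or a mean count of 10, the replicate block, only the libraries compared, a threshold of 0.05, leaving out each library and, added after seeing the data, other macrophage markers as the base for C1q. Same-numbered libraries carry no stated pairing. The 9 genes and the lists of complement genes and markers were chosen with earlier results of these data known. Named from the wider list were up to 5 genes per comparison with the largest change among called genes averaging 50 or more normalized counts, and those of a role described as a whole. Properdin is named outside this rule for rmCIRP in WT cells. C2 and Gm20547 were named after their values were seen, for their overlap with Cfb. A gene planned beside the 9 is not reported here.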

Additional observations from a re-analysis of the deposited data

Results flagged for a closer look

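The response to rmCIRP differed between the genotype labels, by a test of the difference itself, for 4 complement genes. In WT cells, every rmCIRP library lay below every PBS library for C1qa and C1qc, and above every one for C3 and Cfb. Libraries were separate in that comparison for 50.8% of all genes. As labelled TLR4-/- minus WT, the difference of log2 fold changes was 0.43 for C1qa (edgeR adjusted p = 0.0141) and 0.41 for C1qc (adjusted p = 0.0104 from edgeR). It was -0.38 for C3 (adjusted p = 0.0453 from edgeR) and -4.31 for Cfb (adjusted p = 0.000372 from edgeR). The Xist reads and macrophage markers that separate the labels cannot be told apart from the genotype in these differences.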

How the results depend on the processing

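The number of the 9 genes called was 5 for rmCIRP in WT cells (5 to 6 over alternatives, and 5 to 6 without 1 library), 5 with rmTGF-β1 in both groups (5 to 6, and 4 to 5), 8 between the labels with PBS (8, and 6 to 8) and 4 for the difference in the rmCIRP response (4 to 5, and 3 to 5). For rmTGF-β1 in WT cells it was 0, but 1 without the filter on low counts, where C3 had an adjusted p of 0.00291 in edgeR, and 0 to 1 when 1 library was left out (C3 again, at 0.0605 without PBS library 1 and 0.0693 without rmTGF-β1 library 1). The cause was not tested. The C1q sum per macrophage marker count, as a log2 difference of rmCIRP and PBS in WT cells, was -0.27, against -0.71 without Lyz2 and 0.072 with Csf1r alone. Between the labels it was 0.81, 0.70 and 0.48. These marker choices were added after seeing the data. Without the filter C4b was also called for rmCIRP in WT cells, at an adjusted p of 0.0785 in edgeR. Values near 0 changed sign: for rmCIRP in WT cells that of C1ra was 0.00212 without the filter, 0.00757 at a mean count of 10 and 0.00879 with only the libraries compared. Leaving out 1 library gave -0.14 to 0.16 for C1ra, -0.048 to 0.20 for C1s1 and -0.046 to 0.47 for C4b in that comparison, -0.13 to 6.16e-05 for C1qa with rmCIRP under the TLR4-/- label, -0.023 to 0.90 for Cfb between the labels, and -0.66 to 0.31 for Cfb in the interaction with rmTGF-β1. The replicate block changed 1 call, that of C1qb in the difference of the rmCIRP response (0.25, adjusted p = 0.0343 in edgeR), and no other of the 9 genes in any comparison. Deviations of same-numbered libraries had a mean correlation of 0.012 over 84 pairs. Of the 24 libraries, 12 correlated best with their own number among the 3 numbers, as some would without any pairing. For rmCIRP added to rmTGF-β1 under the TLR4-/- label the mean was 0.20 over 3 pairs, with a highest of 0.37. The block raised the genes called there from 437 to 810. Means in the remaining comparisons ran from -0.078 to 0.028. Over all genes, counts moved by the largest factors where few were called: rmCIRP under the TLR4-/- label gave 0 (up to 149 over the alternatives), the addition of rmCIRP to rmTGF-β1 there 437 (0 to 1580), the difference in the rmTGF-β1 response 14 (6 to 563) and the WT interaction 8 (4 to 198). Depth limits Cfb most, with 11 reads over the 3 WT PBS libraries.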
